A study of Drosophila melanogaster with 3 samples.

Results

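The bithorax complex is the stretch of chromosome arm 3R that holds the Hox genes Ubx, abd-A and Abd-B, and 22 of the 10337 HA-Ubx peaks in the authors' deposited list had their midpoint in it. Members were all peaks on 3R with a midpoint from 12480000 to 12815000 in the dm3 build, a window of 335 kb set by position and not by any peak value. The peaks come from chromatin immunoprecipitation followed by sequencing (ChIP-seq), in which DNA bound by a protein is pulled down with an antibody and sequenced. The antibody recognised the HA epitope tag, so the map is of HA-tagged Ubx supplied to the cells by stable transfection, and untagged Ubx from the cells' own gene would not be pulled down by the tag.

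The cells were S2-DRSC, a Drosophila line derived from late embryos, of the genotype HA::Ubx, and every sample was treated with copper sulphate at 10 micromolar for 24 h. There were 3 samples, namely 2 replicates of the HA immunoprecipitation and 1 input. No line without the transgene, no untreated cells and no tissue are among them, so the levels of HA-Ubx in these cells cannot be set against those in the fly. Peaks that the HA antibody would also give in cells without the tag cannot be told apart in the list. Where the transgene integrated is not given in the sources used here, and neither is whether the line is 1 clone. Both replicates name the same single list of peaks. No value below therefore has a replicate error, and the intervals given cover counting error only. Each peak carries a score deposited by the authors, and which quantity of the peak caller it is was not stated. It is used here only to compare peaks within the list. Medians, cutoffs and Pearson's r below take the score as deposited, without a known unit. Reads were not counted here, and the depth under a peak is not known.

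Hox proteins are homeodomain transcription factors that give the segments of the body axis their identity. In the bithorax complex, Ubx acts in the posterior thorax and first abdominal segment, abd-A in the middle abdominal segments and Abd-B in the most posterior ones. Protein-coding sequences are only part of the complex. It also has long regulatory regions, among them abx/bx and bxd/pbx for Ubx and the iab regions for abd-A and Abd-B. These carry enhancers, boundary elements and Polycomb response elements. Through the last of these, Polycomb proteins keep the genes silent where they are not needed. The Hox genes of the complex also regulate one another, and abd-A and Abd-B repress Ubx in the posterior segments of the embryo.

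Ubx, abd-A and Abd-B all lie on the minus strand in the Release 6 annotation, so that the upper end of each gene interval is its 5′ end. The approximate dm3 intervals used here were 12482000 to 12560000 for Ubx (78 kb), 12633000 to 12656000 for abd-A (23 kb) and 12753000 to 12798000 for Abd-B (45 kb), each bound being good to about 1 kb. In the order of Release 6, the long noncoding RNA bxd and the sugar transporter-like gene Glut3 come between Ubx and abd-A. The protein-coding gene MSAmiP, the noncoding transcripts iab4 and iab8 and the microRNA genes of the iab region come between abd-A and Abd-B. No exon, intron or promoter was assigned to any peak, because a dm3 annotation was not used here.

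HA-Ubx peaks were found in all 3 gene intervals and in the stretches between them. The Ubx interval held 2 peaks, the stretch from Ubx to abd-A held 4, the abd-A interval held 1, the stretch from abd-A to Abd-B held 6 and the Abd-B interval held 6. The last 3 peaks lay above Abd-B, where Release 6 lists VhaM9.7-d, Actn3 and AhcyL2 as the next protein-coding genes. From the lower end of Ubx to the upper end of Abd-B there were thus 19 peaks.

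**Figure D1:**
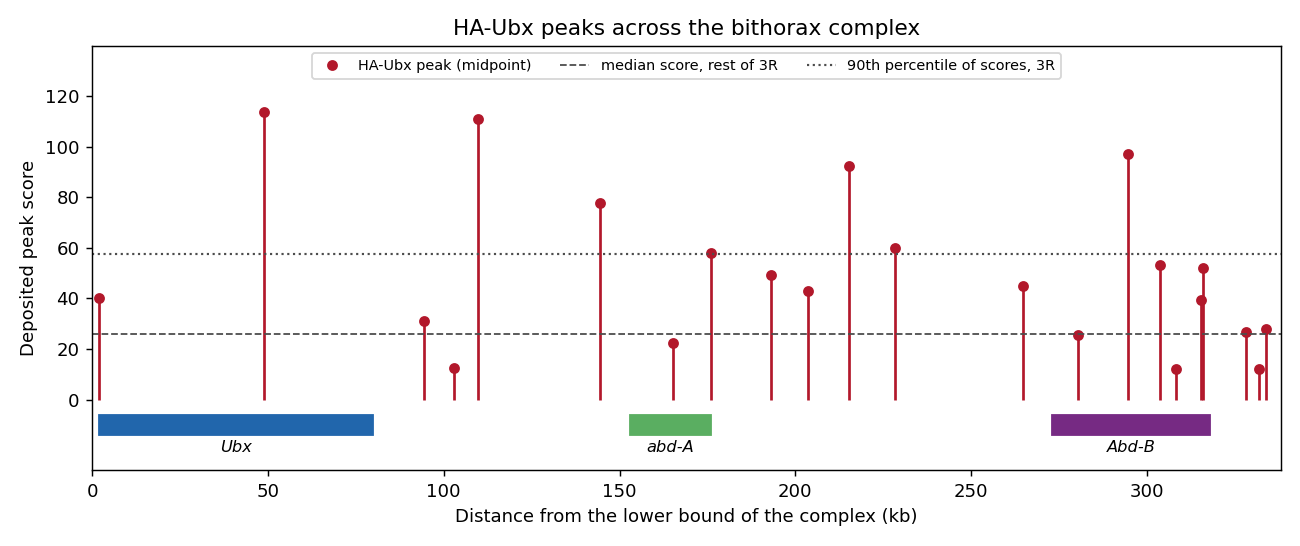
Deposited score of each HA-Ubx peak (vertical axis) against the distance of its midpoint from the lower bound of the complex in kb (horizontal axis), with the approximate intervals of Ubx, abd-A and Abd-B as bars below. Both peaks of Ubx lie above the median of the rest of 3R (dashed line), the peak inside abd-A lies below it, and 7 of the 22 reach the 90th percentile of 3R scores, 57.7 (dotted line).

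The Ubx interval held few peaks, of which the stronger had the highest score of the complex. This peak lay at chr3R:12528392-12529425, measured 1034 bp and scored 113.9, above 99.8% of the 3R peaks. It stood alone inside the gene interval, with 46.1 kb free of peaks below it and 44.9 kb above it, and these were the longest and second longest peak-free stretches of the complex. The other Ubx peak, at chr3R:12481889-12482255, spanned the lower (3′) end of the interval and scored 40.2 over 367 bp. Its midpoint fell just inside that bound, which is good to about 1 kb. A small shift of the bound would leave only the stronger peak in the interval. The upper (5′) end of Ubx at 12560000 fell inside the second of these stretches, from 12529426 to 12574328. The nearest peaks lay 30.6 kb below and 14.3 kb above that end. Peaks covered 1.65% of the Ubx interval, against 5.11% of the complex as a whole.

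Between Ubx and abd-A, the region that holds the bxd/pbx regulatory sequences of Ubx, 4 peaks were listed with a wide range of scores. The first, at chr3R:12574329-12574627, was the narrowest of the complex at 299 bp and scored 31.02. Next came a wide and weak peak of 1637 bp at chr3R:12582084-12583720, whose score of 12.4 was above only 10.01% of 3R peaks. The peak at chr3R:12589361-12590318 followed 5.64 kb further on, measured 958 bp and scored 111.01, the second highest score of the complex and above 99.6% of 3R peaks. The fourth, at chr3R:12624174-12624769, scored 77.8 and was the fifth strongest. A strong and a weak peak were thus 5.64 kb apart here, and a stretch of 33.9 kb without a peak separated the strongest pair.

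The abd-A interval held 1 peak by midpoint and was touched by a second at its 5′ end. The inner peak, at chr3R:12645003-12645554, scored 22.4, which was above 41.5% of 3R peaks. The second, at chr3R:12655623-12656498, spanned the upper bound of the interval at 12656000 and scored 58.2, above 90.3% of 3R peaks. Its midpoint fell just outside the interval, so it is counted with the stretch between abd-A and Abd-B. Of the 3 genes, abd-A was thus the one whose 5′ bound lay under a peak, whereas that of Ubx was 14.3 kb from the nearest one and that of Abd-B 1.59 kb. Since the bounds are good to about 1 kb, these distances are approximate.

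The stretch between abd-A and Abd-B, which carries the iab regulatory regions, held 6 peaks, and none of them was weak. Scores ran from 43.06 to 92.5 around a median of 53.7, so that the lowest was above 77.7% of 3R peaks. The strongest lay at chr3R:12694925-12695555 and scored 92.5 over 631 bp. It was flanked by a peak scoring 43.06 at chr3R:12683237-12683866 and by one scoring 59.8 at chr3R:12708071-12708704. Together with the peaks at chr3R:12672919-12673283, scoring 49.1, and at the 5′ end of abd-A, these formed a row of 5 peaks whose edges were 9.95 to 16.4 kb apart. A stretch of 36.0 kb without a peak followed, from 12708705 to 12744668, the third longest of the complex. It ended at the sixth peak, at chr3R:12744669-12745125, which scored 45.06.

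The Abd-B interval held as many peaks as that longer stretch, and their scores varied more. The strongest, at chr3R:12774284-12775055, measured 772 bp and scored 97.1, the third highest of the complex. The weakest of the whole complex lay further on at chr3R:12787992-12788409, with a score of 12.05. A peak scoring 53.3 at chr3R:12783542-12783849 stood between them. Near the lower end, a peak of 1122 bp at chr3R:12759737-12760858 scored 25.6. Near the 5′ end, a pair only 81 bp apart lay at chr3R:12795153-12795617 and chr3R:12795699-12796411, scoring 39.3 and 52.1. The peaks covered 8.44% of the interval, the largest part among the 3 genes.

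Beyond Abd-B, within the bounds of the complex, no peak scored above 27.8, and the outer pair were wide. The 3 peaks at chr3R:12807641-12808479, chr3R:12811052-12812820 and chr3R:12813037-12814719 scored 26.9, 12.1 and 27.8. The latter pair were the widest of the complex, at 1769 and 1683 bp, and were 216 bp apart. The 3 together covered 25.2% of these 17 kb. The 3 widest peaks of the complex thus scored no higher than 27.8, while the 5 with the highest scores measured 596 to 1034 bp. Over the 22 peaks, Spearman's rho between score and width was -0.032 and Pearson's r was -0.17, against 0.23 and 0.15 over the other 2296 peaks of 3R. Without the 3 peaks beyond Abd-B, the 19 from the lower end of Ubx to the upper end of Abd-B had values of 0.29 and 0.11. The lower values over all 22 thus rest on those 3 peaks. These are descriptions of 1 list, in which score and width of a peak come from the same reads.

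**Figure D2:**
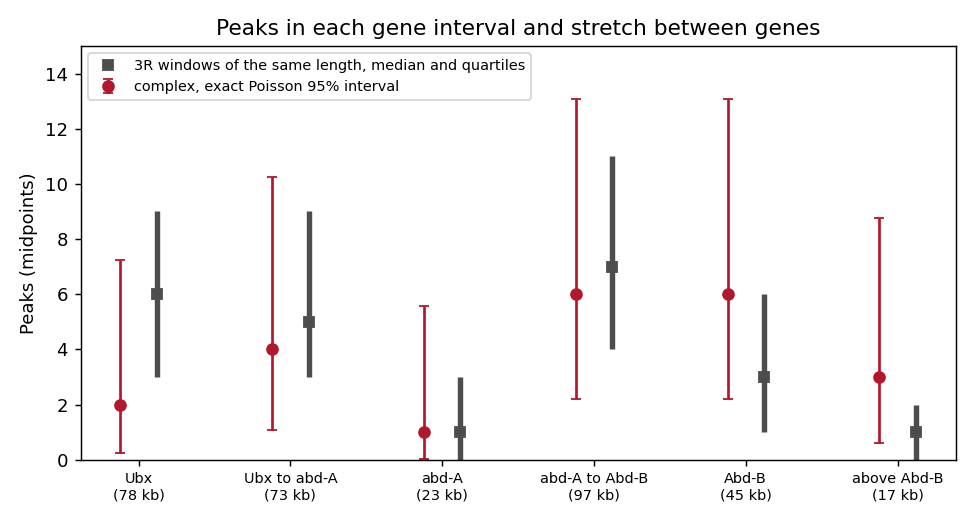
Number of HA-Ubx peaks by midpoint in each gene interval and stretch of the complex (circles, with exact Poisson 95% intervals) and in windows of 3R of the same length outside the complex (squares, median; thick lines, quartiles). Ubx held 2 peaks where equal windows held a median of 6, and Abd-B held 6 where they held a median of 3; the Poisson intervals of both include the window median.

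The number of peaks in the complex was close to that of other stretches of 3R. The 22 peaks (exact Poisson 95% interval 13.8 to 33.3) gave 65.7 peaks per Mb, against 83.3 per Mb on the rest of the arm, a ratio of 0.788 whose exact 95% interval, 0.493 to 1.196, included no difference. Windows of the same length were laid every 1 kb along the span of 3R outside the complex. They overlap heavily and are a description of the arm, not independent samples. Over these 26878 windows the median was 27 peaks, with quartiles of 20 and 34, and 69.4% of them held 22 or more. The covered length was 17.1 kb in the complex and 21.98 kb in the median window. The complex as a whole thus lay inside the quartiles of the arm in its number of peaks. Among the 50% of peaks that scored highest, the density ratio turned to 1.23, with an interval of 0.729 to 1.96 that again included no difference, and 28.8% of windows held as many peaks as the complex. The 335 kb directly below held 32 peaks and the 335 kb directly above held 28.

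Among the 3 gene intervals, Ubx had the fewest peaks per Mb, 25.6, and Abd-B the most, 133.3, and the 17 kb beyond Abd-B had 176.5 per Mb. In windows of 78 kb, 84.5% held at least the 2 peaks of the Ubx interval, and the median was 6. In windows of 45 kb, 26.4% held at least the 6 peaks of the Abd-B interval, and the median was 3. For the single peak of abd-A the share was 67.1%, with a median of 1 peak in windows of 23 kb. The stretch from Ubx to abd-A, with 4 peaks, and that from abd-A to Abd-B, with 6, stood beside medians of 5 and 7 in windows of their lengths. The 3 peaks beyond Abd-B stood beside a median of 1, and 22.5% of windows of 17 kb held as many. The Poisson 95% interval of each of these counts included its window median. The count of Ubx lay below the lower quartile of its windows, 3, and that beyond Abd-B above the upper quartile, 2.

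The scores of the peaks ranked high within 3R. The 22 scores had a median of 44.1 with quartiles of 27.1 and 59.4, whereas the other 3R peaks had a median of 25.8 with quartiles of 16.8 and 40.3. In all, 17 of 22 (77.3%) exceeded the median of all 3R peaks, and 7 of 22 (31.8%) were among the 10.01% of 3R peaks that scored 57.7 or more. On the rest of the arm 9.80% of peaks reached that score. Scores of 100 or more were reached by 2 of the 22 and by 17 of the other 2296 (0.740%). Widths did not show this, with a median of 632.5 bp in the complex and 659 bp elsewhere on 3R.

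Few equal windows of 3R had a median score as high as the complex. Of the 26878 windows, 1.37% reached 44.1, and the median window had a median score of 25.5. The median score was 77.03 for the 2 peaks of the Ubx interval, which scored 40.2 and 113.9. The weaker of these is counted there by a midpoint just inside the approximate 3′ bound. The median was 54.4 for the 4 peaks between Ubx and abd-A, 53.7 for the 6 between abd-A and Abd-B, and 45.7 for the 6 of Abd-B. The 3 peaks beyond Abd-B had a median of 26.9. The abd-A interval held only the peak scoring 22.4 by midpoint, but with any overlap, or with bounds 1 kb wider, it held 2 peaks, the other being the one that scored 58.2. These medians rest on few peaks and are not ranked here. No test was made of these differences, since the list gives no replicate spread. The flanks of the complex had median scores of 24.001 below and 29.3 above, with 2 and 4 peaks scoring 57.7 or more.

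**Figure D3:**
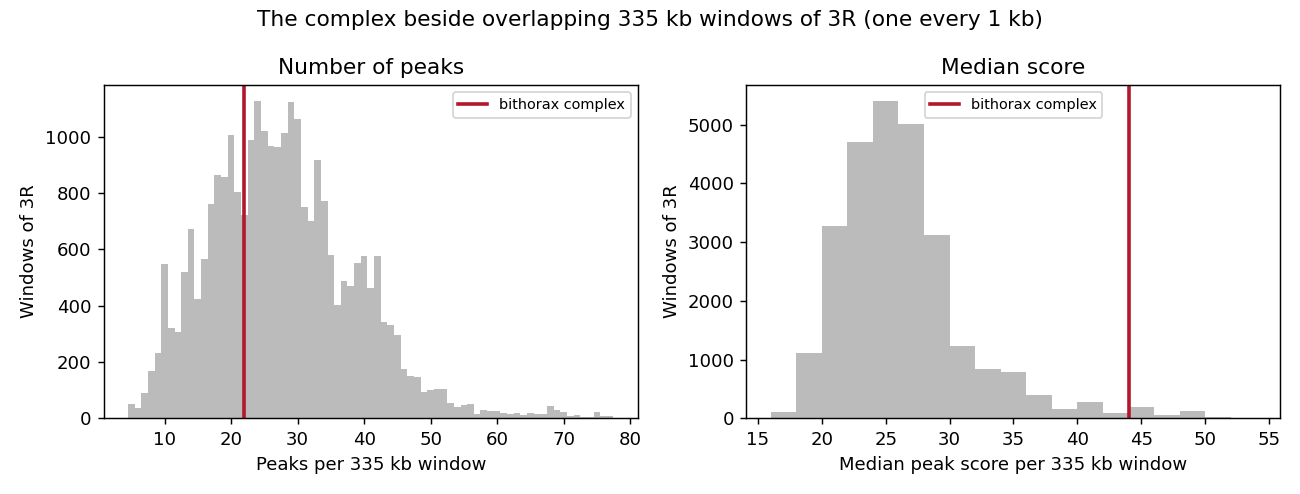
Histograms of the number of peaks (left) and of the median peak score (right, bins of 2 score units) over 26878 overlapping windows of 335 kb on 3R outside the complex, with the complex as a red line. The complex lies inside the quartiles of the windows (20 and 34) for its 22 peaks and in the upper tail for its median score of 44.1.

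The strong peaks of the complex had no other midpoint within 5 kb, and there were more of them than in most equal windows of 3R. The peak scoring 111.01 came nearest to the 5 kb limit, with a weak peak 5.64 kb away from edge to edge. The 7 that scored 57.7 or more were separated by 60.9, 34.6, 31.6, 39.2, 13.1 and 66.3 kb from midpoint to midpoint, in order from Ubx to Abd-B. The median of these distances was 36.9 kb, against 59.5 kb between adjacent peaks of that score over all of 3R, the complex included. The first and last of the distances exceeded 59.5 kb. Distances between 7 peaks within 335 kb are limited by that length, so this comparison adds nothing to the count. The density of the 7 strong peaks, 20.9 per Mb, was 2.52 times the 8.28 per Mb on the rest of the arm (exact 95% interval 1.003 to 5.29, counting error only). The lower limit lies almost at no difference, and the lowest of the 7 scored 58.2, close to the cutoff of 57.7. Cutoffs near this one were not tried, so the excess is not established. All 7 had no other midpoint within 5 kb, whereas 63 of the other 225 such peaks on 3R (28.0%) stood alone in this way. One lay in the Ubx interval, 2 between Ubx and abd-A, 3 between abd-A and Abd-B including the one at the 5′ end of abd-A, and 1 in Abd-B. A count of 7 or more such peaks was found in 5.71% of the windows of 335 kb, and the median window held 2.

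Isolation was common among all members and not only the strong ones. Of the 22 peaks, 8 (36.4%) had another midpoint within 5 kb, against 74.1% of the other peaks of 3R. The nearest other peak lay a median of 7.97 kb away from edge to edge, compared with 1.4985 kb on the rest of the arm. Standing alone did not go with a high score elsewhere on 3R, where the 594 peaks with no midpoint within 5 kb had a median of 25.9 and the 1702 with one had a median of 25.8. In the complex the 14 that stood alone had a median of 53.7, and the 8 with a neighbour had a median of 33.5. The 8 comprised the peak at the 3′ end of Ubx, 4 peaks of Abd-B and the 3 beyond it.

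**Figure D4:**
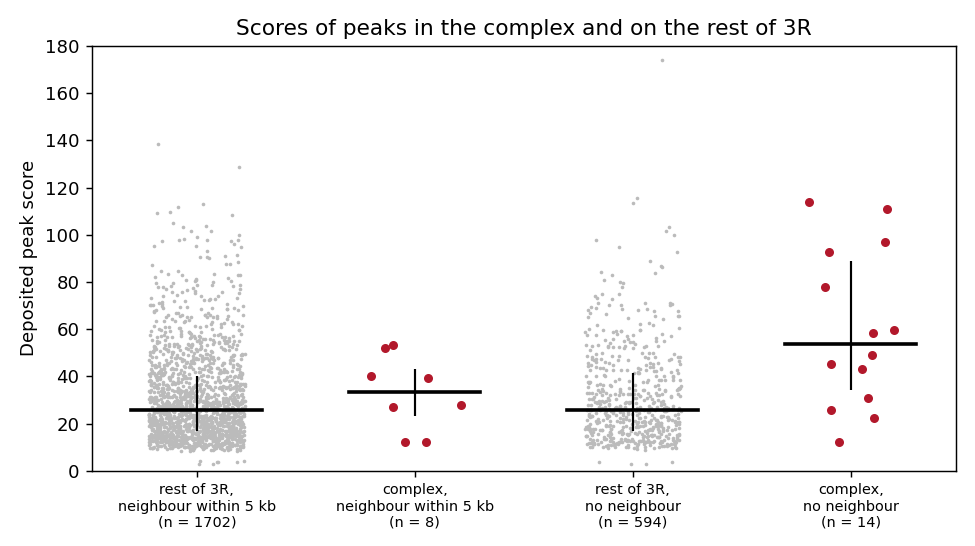
Deposited score of every 3R peak, in the complex (red) and on the rest of the arm (grey), split by whether another midpoint lies within 5 kb; horizontal lines are medians, vertical lines quartiles. The 14 isolated peaks of the complex centre on 53.7 and the 594 isolated peaks elsewhere on 25.9.

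Peak-free stretches in the complex were long but not extreme. The 21 stretches between adjacent members had a median of 11.1 kb with quartiles of 6.74 and 16.4 kb, whereas those on the rest of 3R had a median of 3.93 kb with quartiles of 0.946 and 11.4 kb. Stretches over 10 kb made up 57.1% of those in the complex and 27.7% of those elsewhere. Only 2 of the 21 (9.52%) were under 1 kb, against 25.4% elsewhere. The longest, 46.1 kb inside Ubx, ranked 118 among the 2317 stretches of 3R, the longest of which measured 258.75 kb. The next was the 44.9 kb across the 5′ end of Ubx, which ranked 121, and the third was the 36.0 kb before Abd-B, which ranked 173. In equal windows the longest peak-free stretch had a median of 74.6 kb, and 84.9% of windows held one of at least 46.1 kb. The complex thus combined fewer very short stretches with no very long one. How many reads can be mapped within these stretches was not examined, so the absence of a listed peak is not a measurement of absent binding.

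**Figure D5:**
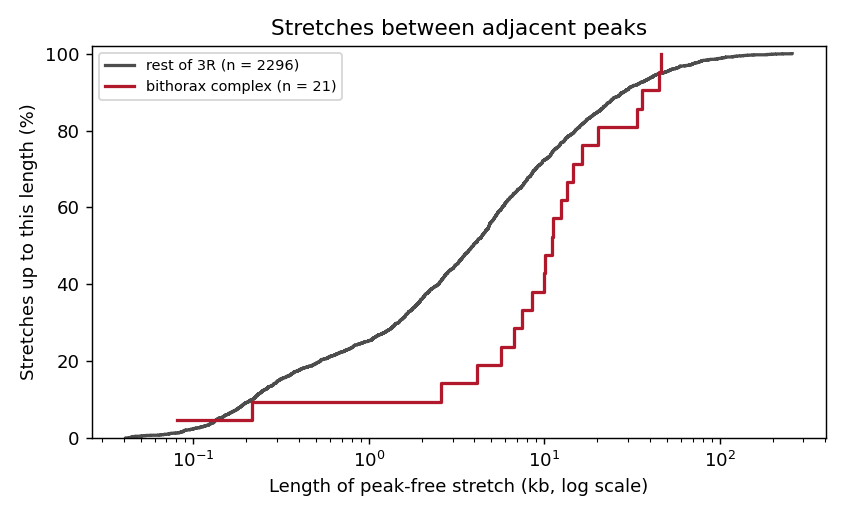
Cumulative share of peak-free stretches between adjacent peaks (vertical axis, percent) up to a given length (horizontal axis, kb, log scale) in the complex (red, 21 stretches) and on the rest of 3R (grey, 2296 stretches). The red line lies to the right over most of the range, with medians of 11.1 and 3.93 kb, and ends at 46.1 kb, where the grey line runs on to 258.75 kb.

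The bounds of the complex fell between peaks. The first member inside the lower bound had a midpoint 2.07 kb from it and scored 40.2, and the nearest peak outside lay 1.98 kb below it and scored 32.1. At the upper bound the last member, scoring 27.8, had its midpoint 1.12 kb inside, and the next peak, scoring 52.2, was 2.60 kb outside.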

How the data were processed

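HA-Ubx ChIP-seq peaks in S2-DRSC cells were analysed from the 1 list that both immunoprecipitation replicates share. The authors deposited a position and a score per peak. BWA 0.7.12, MACS2 and the build dm3 are named in the submitters' processing notes, but thresholds, the pooling of replicates, the use of the input and the meaning of the score are not stated in the labels. The 3R arm of Release 6 ends 4.17 Mb after the last 3R peak, and no coordinate was converted. The gene intervals came with the rule that defines the complex, as Release 6 positions less a constant shift, rounded to 1 kb. Their lengths of 78, 23 and 45 kb compare with 77.8, 22.8 and 45.03 kb in the Release 6 annotation, which was otherwise used for gene order, names and strand only. The complex, its genes and the measures described were chosen with earlier results of these data known.

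Peaks were assigned by midpoint. Windows started every 1 kb from the first 3R peak and left out any that touched the complex. Peak-free stretches run between the edges of adjacent peaks. Counts carry exact Poisson 95% intervals, and the density ratio an exact binomial interval conditional on the total. These cover counting error only and treat peaks as independent. All 22 members were listed, those with the 5 highest and 3 lowest scores, the 3 widest, those within 2 kb of an interval's end and the 3 longest stretches being named by rule. No test was made, as 1 common list gives no spread between samples. The counting functions were tested on simulated data. The software was Python 3.11.15 with pandas 2.3.3, numpy 2.4.6, matplotlib 3.10.9 and scipy 1.17.1. Alternatives were the 50% of peaks with the highest score, peaks under 1000 bp apart joined, peaks scoring under 5 left out, other bounds, overlap in place of midpoints and other windows.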

Additional observations from a re-analysis of the deposited data

How the results depend on the processing

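The count of 22 peaks stayed between 18 and 29, and the median score between 39.3 and 50.6, over the settings run for each. The longest stretch was 46.1 kb in each of its 3 settings. The density relative to the rest of 3R went from 0.788 to 1.23 among the 50% of peaks that scored highest, and the share of windows with as many peaks from 69.4% to 28.8%. Both follow from the high scores of the members, 18 of which were kept. The density ratio also came near to no difference with peaks under 1000 bp apart joined, 0.960, and with bounds 10 kb wider, 0.982. It was 0.685 with bounds 10 kb narrower and 0.721 for Ubx to Abd-B only. With joining, 54.6% of windows held as many peaks. The share of windows with as high a median score, 1.37%, was 2.44% (2 of 82) in non-overlapping windows, 2.26% in runs of 22 consecutive peaks, 0.631% over 2L, 2R, 3L and 3R, and 0.397% for Ubx to Abd-B only. The cause was not tested. These settings, joining for scores and the bounds from Ubx to Abd-B were chosen after seeing the data. The share of windows with as high a median score was not computed for bounds 10 kb wider, where the median fell to 39.3. Of 21 recounts by interval, 16 stayed within 1.5 times, the others being in abd-A (0 to 2 peaks) and in the 2 kb below Ubx (1 peak). Interval bounds were moved by 1 kb outwards only. A move inwards, which was not run, would leave out the peak at the 3′ end of Ubx. Neither pairing nor leaving out a replicate was possible with 1 common list. Depth is unknown.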

Other observations

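The 335 kb windows of 3R outside the complex whose median score reached 44.1 fell into 3 blocks of overlapping windows. The largest, of 278 windows, ran from 2286651 to 2940651 and reached a median score of 52.2, with 13 to 31 peaks per window. The second, of 87 windows, ran from 17072651 to 17546651 and reached 46.5, with 19 to 42 peaks. The last comprised 2 windows of 9 peaks each, from 22144651 to 22480651. No genes were assigned to the blocks.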
